A study of Mus musculus with 12 samples.

Results

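Subcutaneous KCip53-1 tumors differed widely in their content of adipocyte transcripts, and the 4 adipose-rich tumors were compared with the 4 adipose-poor tumors of the 12 that were sequenced. The tumors were chosen by their own measured values, as the mean log2(RPKM + 0.25) of 5 adipocyte genes (Adipoq, Plin1, Fabp4, Cfd and Cidec), whatever their dox group, where RPKM is the read count scaled to exon length and to the mapped reads of the library. The contrast is therefore described here and carries no test. The other 4 tumors lay between and were on neither side of the contrast. They count in the RPKM limit, the comparisons within dox groups, the dox tests and the runs with 1 tumor left out.

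KCip53-1 is 1 mouse pancreatic cancer line from a mouse with Ptf1a-Cre, R26-rtTA and a TREp53R270H transgene, in which doxycycline (dox) in the drinking water switches on mutant p53 in the tumor cells. NSG mice of 8 to 10 weeks received 500000 cells per tumor in Matrigel and RPMI, and each mouse carried 2 tumors. By the sample labels, the 4 no-dox tumors had 0 days of dox, the 4 plus-dox tumors had 36 days at 0.2 g/l in 5% sucrose, and the 4 off-dox tumors had 33 days at that dose and then 3 days without it, whereas the study's text places the withdrawal at the time tumors could be felt. RNA came from whole, unsorted tumors, so every host cell type contributes. The pairing of tumors by mouse is not given, and tumors of a group may share a host. NSG hosts lack mature T, B and NK cells, while their fat, vessels, muscle and myeloid cells remain.

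White adipocytes store triglyceride in a single large droplet coated by perilipins and release it by lipolysis. They take up glucose and fatty acids in response to insulin, and they secrete hormones such as adiponectin, leptin and, in mice, resistin. PPARγ and C/EBPα are the transcription factors that drive their differentiation, and a subcutaneous graft grows beside the fat of the skin.

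All 5 score genes were spread over a wide range of levels. Adipoq, which encodes the hormone adiponectin, lay at 57.3, 42.4, 39.5 and 26.8 RPKM in the adipose-rich tumors, that is, no-dox 1, no-dox 3, plus-dox 4 and plus-dox 1, the order kept for all values of this group. In the adipose-poor tumors, no-dox 2, off-dox 1, plus-dox 3 and no-dox 4 in the order kept throughout, Adipoq was at 3.26, 0.959, 0.353 and 0.109 RPKM. The 4 tumors between, plus-dox 2, off-dox 4, off-dox 2 and off-dox 3, held 20.3, 22.6, 12.3 and 6.94 RPKM. Both ends of the range were no-dox tumors, and the groups chosen on this gene do not overlap by construction. Behind these values stood 2396 counts in no-dox 1 and 5 counts in no-dox 4, so the lowest levels are known only roughly.

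Cfd, the complement factor adipsin that fat secretes, had the highest levels of the 5 in the adipose-rich tumors, with 579.6, 449, 321 and 254 RPKM. In the adipose-poor tumors it was at 23.3, 6.18, 1.68 and 1.11 RPKM, and Fabp4 was higher in each of them. Plin1, the coat protein of the large droplet, was at 14.8, 10.1, 9.50 and 4.14 RPKM against 0.914, 0.191, 0.0426 and 0.0141 RPKM, the last from 1 count. Fabp4, the fatty acid carrier of adipocytes, ran from 391 down to 216 RPKM in adipose-rich and from 25.0 down to 11.6 RPKM in adipose-poor tumors. Cidec, which fuses droplets, had 17.6 to 35.8 RPKM in the former and 0.703 to 3.45 RPKM in the latter. Fabp4 and Cidec thus kept a measurable level where Plin1 and Adipoq had almost none. The difference of means on the log2(RPKM + 0.25) scale was 6.42 for Cfd, 5.36 for Adipoq, 4.34 for Plin1, 3.91 for Fabp4 and 3.69 for Cidec. With the pseudocount, such differences understate the change of genes at low levels.

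The score itself, a mean of log2 values, was 5.36 to 6.55 in the adipose-rich tumors and 0.25 to 2.61 in the adipose-poor tumors. Just inside and outside the upper limit stood plus-dox 1 at 5.36 and plus-dox 2 at 4.85, and at the lower limit no-dox 2 at 2.61 and off-dox 3 at 3.45. Scaling each marker to unit variance, or scoring the tumors by the other adipocyte genes except those of thermogenic fat, chose the same 8 tumors. In mm9 coordinates, Adipoq lies at chr16:23146609-23158041 (plus strand), Plin1 at chr7:86866050-86877662 (minus), Fabp4 at chr3:10204343-10208576 (minus), Cfd at chr10:79353598-79355401 (plus) and Cidec at chr6:113374630-113385749 (minus), each as the whole span of the gene with its exons and introns.

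**Figure D1:**
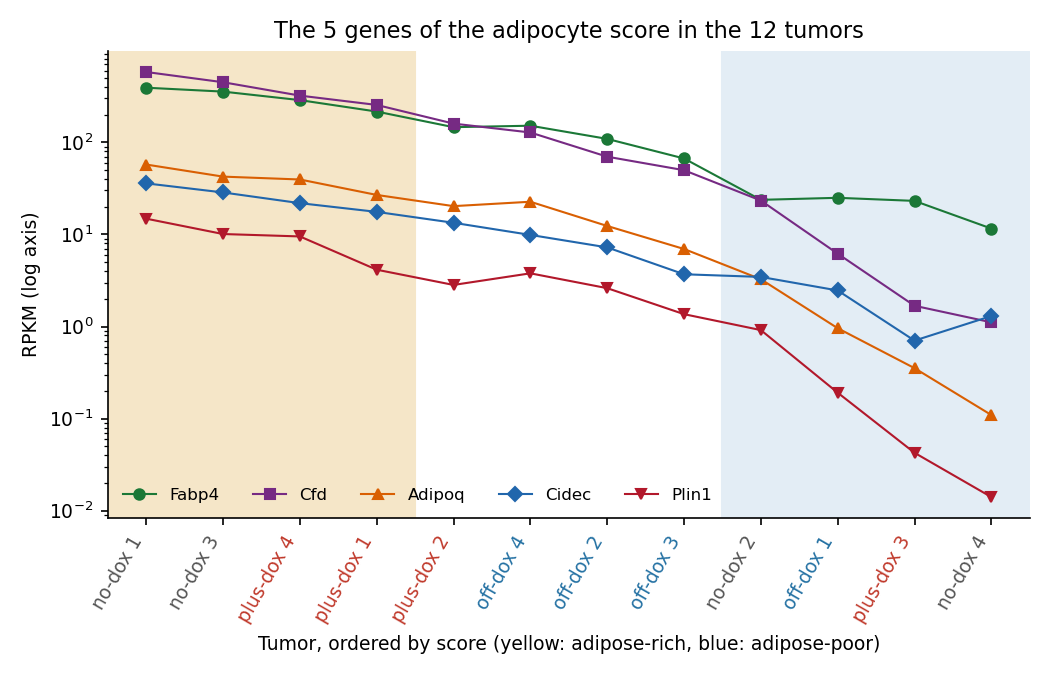
RPKM (log axis) of the 5 score genes, 1 point per tumor, with the 12 tumors in falling order of the score from left to right; tumor names are gray for no-dox, red for plus-dox and blue for off-dox. The yellow band holds the 4 adipose-rich and the blue band the 4 adipose-poor tumors, and Adipoq runs from 57.3 RPKM at the left to 0.109 RPKM at the right.

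Relative to Adipoq within the same tumor, the score genes split into 2 kinds. Plin1 stood at 0.121 to 0.280 RPKM per RPKM of Adipoq and Cfd at 4.76 to 10.6 over all 12 tumors, a narrow range beside that of the levels themselves. Fabp4 held 6.69 to 9.61 RPKM per RPKM of Adipoq in the 8 tumors with the highest score and 7.28 in no-dox 2, but up to 105.7 in no-dox 4. Cidec had a ratio of 0.436 to 0.673 in the 8 upper tumors and 1.06 to 11.9 in the 4 adipose-poor tumors. Scd1, the stearoyl-CoA desaturase, had 2.30 to 5.55 in the 8 upper tumors and 54.4 in no-dox 4. Because Adipoq rests on 5 to 29 counts in the lowest 3 tumors, ratios there are imprecise, but Fabp4 had 275 counts or more in every tumor.

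**Figure D2:**
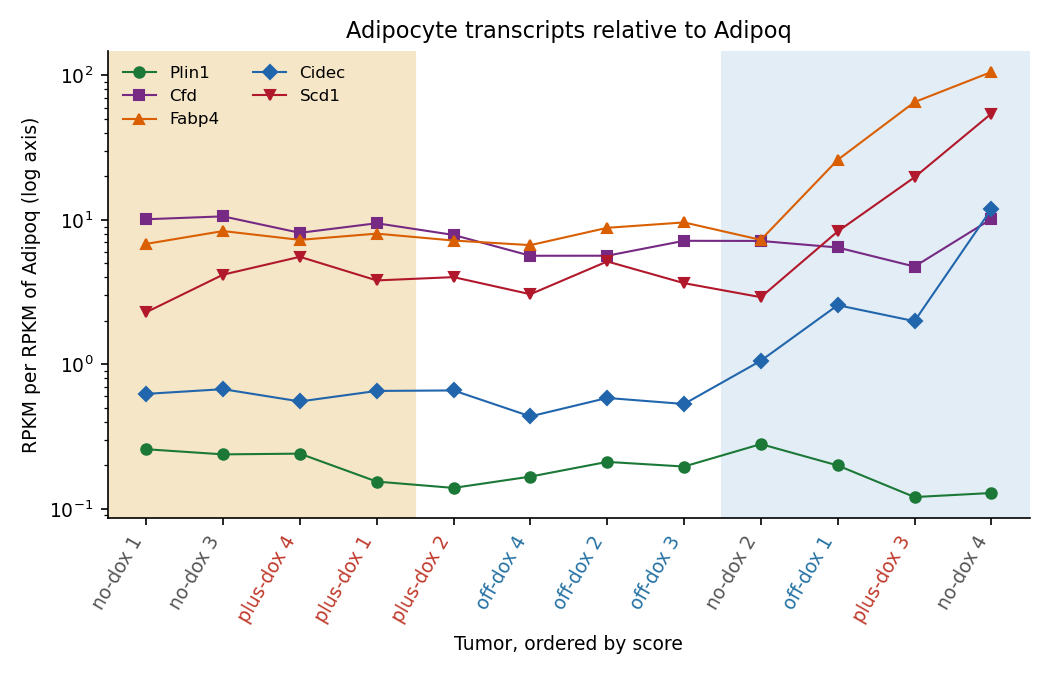
Ratio of the RPKM of 5 adipocyte genes to that of Adipoq (log axis) in each of the 12 tumors, ordered and shaded as in the plot of the score genes. The lines of Plin1 and Cfd stay level, whereas those of Fabp4, Cidec and Scd1 climb in the adipose-poor tumors, to 105.7 for Fabp4 in no-dox 4.

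Across the 14345 other genes with a mean RPKM above 0.25 over the 12 tumors and more than 250 bp of exon, 193 lay higher in all 4 adipose-rich tumors than in any adipose-poor tumor with a difference of means above 1.5-fold, which is 1.35% of the genes compared. In the other direction 66 genes were separated, which is 0.46%. These genes are called separated in what follows. The median difference over all genes was 0.04, so the 2 groups were centered alike. Of the 193 genes, 92 differed by over 2-fold and 32 by over 4-fold, whereas 17 of the 66 lower genes passed 2-fold. The higher side moved with the choice of tumors: without plus-dox 1 the same rule gave 291 genes, without off-dox 1 it gave 114, and without no-dox 4 it gave 117. The lower side moved more, with 10 to 18 genes when an adipose-poor tumor (no-dox 2, off-dox 1, plus-dox 3 or no-dox 4) was left out and off-dox 3 took its place, and 111 to 171 genes when an adipose-rich tumor (no-dox 1, no-dox 3, plus-dox 4 or plus-dox 1) was left out and plus-dox 2 took its place. Fewer adipocytes and less RNA per adipocyte cannot be told apart in whole tumors, and this holds for every cell type named here.

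Of the 12 higher genes with the largest differences, all but 1100001G20Rik and Cyp2e1 were in the adipocyte lists. Of the 94 adipocyte genes listed besides the score genes, 88 passed the RPKM limit, 33 of these were separated and higher, and none was separated and lower, with a median difference of 0.41 against 0.04 over all genes. As 1.35% of all genes were separated and higher by the same rule, and the tumors were sorted by adipocyte genes, this count is a description of the choice. Of the 6 genes under the limit, Aqp7 (the glycerol channel of fat) and Acvr1c (an activin receptor of fat) had non-overlapping groups too, and Elovl3, Tbx1, Ucp1 and Zic1 did not.

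**Figure D3:**
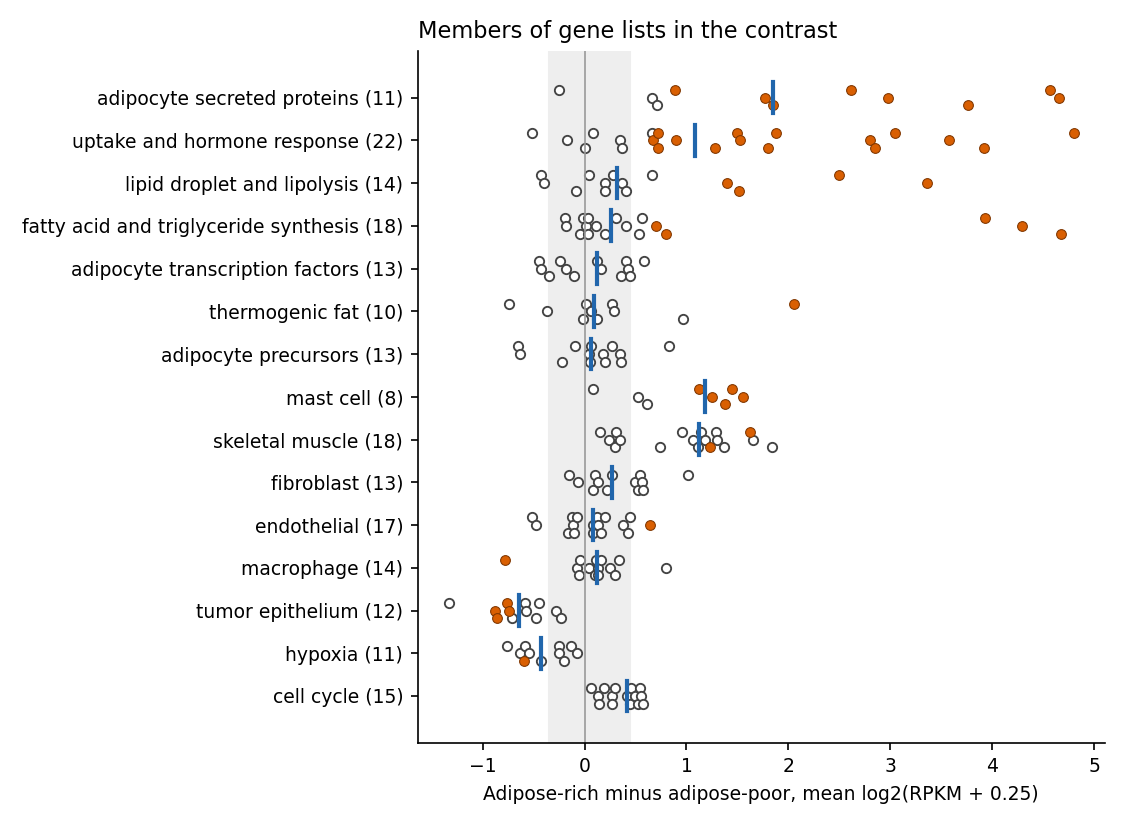
Difference of means between the adipose-rich and the adipose-poor tumors, on the log2(RPKM + 0.25) scale, for members of 15 gene lists (number compared in parentheses); each point is a gene, filled orange where the 4 tumors of each side do not overlap and the means differ by over 1.5-fold, and open otherwise. Blue ticks mark each list's median and the gray band spans the 5th to 95th percentile of all genes, -0.35 to 0.45; secreted proteins reach 4.66, and every member of the tumor epithelium list lies below 0.

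Secreted proteins made up the list with the highest share of separated genes, 8 of 11, with a median difference of 1.85. Retn, which encodes resistin, lay at 18.6, 13.7, 9.64 and 7.64 RPKM in adipose-rich and at 1.21, 0.0633, 0.155 and 0.0210 RPKM in adipose-poor tumors, a difference of 4.66 (SD 0.55 and 1.11, n = 4 each). Hp, the hemoglobin-binding haptoglobin that fat and liver secrete, had 219, 246, 275 and 193 RPKM against 25.5, 12.8, 8.13 and 2.99 RPKM. Both were far apart, and Hp was the more abundant. Lep, which encodes leptin, was low everywhere, at 2.88, 1.45, 2.24 and 0.579 RPKM against 0.102, 0.0625, 0.00835 and 0.0248 RPKM, with 1 to 10 counts per adipose-poor tumor. Orm1, an acute-phase glycoprotein with near-identical copies in the genome, differed by 3.76, Apoc1 (a lipoprotein component) by 1.85 and Nnat (neuronatin) by 1.77. Rbp4, the retinol carrier, had the smallest separated difference of the list, 0.88. Angptl4, a secreted inhibitor of lipoprotein lipase that fasting and hypoxia induce, overlapped, with 20.2 to 52.0 RPKM against 13.7 to 26.5 RPKM, and its highest levels were in plus-dox 2 and off-dox 4, at 130.0 and 112 RPKM.

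The promoters of Plin1, a score gene, and Lep, a separated gene, are shown. They were picked because both windows hold matches to the C/EBP-type motif TTNNGCAA on either strand, here in capitals. The sequences are from RefSeq on GRCm38.p6 and run 5′ to 3′ on the gene's strand, from 250 bases before to 50 bases after the start of transcription, at chr7:79732727-79733026 (minus strand) for Plin1 and chr6:29059971-29060270 (plus strand) for Lep.
Plin1: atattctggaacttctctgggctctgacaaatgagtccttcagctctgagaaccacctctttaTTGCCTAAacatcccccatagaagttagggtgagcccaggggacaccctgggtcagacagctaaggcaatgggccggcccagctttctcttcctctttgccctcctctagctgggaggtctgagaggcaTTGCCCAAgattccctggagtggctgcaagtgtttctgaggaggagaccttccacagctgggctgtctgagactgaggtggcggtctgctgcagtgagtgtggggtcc
Lep: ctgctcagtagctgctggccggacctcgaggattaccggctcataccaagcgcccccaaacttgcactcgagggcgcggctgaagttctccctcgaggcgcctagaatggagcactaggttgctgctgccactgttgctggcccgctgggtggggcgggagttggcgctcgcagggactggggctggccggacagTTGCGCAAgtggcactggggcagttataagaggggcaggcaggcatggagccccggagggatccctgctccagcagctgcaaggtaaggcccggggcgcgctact
The Lep match is the full palindrome TTGCGCAA, a form of TTNNGCAA. Among the score genes and 14 defining adipocyte genes, 13 of 19 had at least 1 promoter in the table, 17 promoters in all, of which 4 held TTNNGCAA and 4 held AGGTCA, the half-site of nuclear receptors, on either strand. None of them held the DR1 repeat of AGGTCA, in which 1 base separates 2 copies and which 0.0396% of all 32851 promoters hold. For the 193 higher genes, 143 promoters of 122 genes were found, and 15.4% of them held TTNNGCAA and 16.8% AGGTCA, against 10.8% and 16.3% of all promoters. For the adipocyte genes, score genes included, 87 promoters of 62 genes were found, and 8.05% of them held TTNNGCAA and 17.2% AGGTCA. Of the 50 promoters of the lower genes, 4% held TTNNGCAA and 18% AGGTCA. A match describes the letters only and is not a site of binding.

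Genes of nutrient uptake and hormone response were separated in 15 of 22 cases, with a median difference of 1.09. Car3, a cytosolic carbonic anhydrase abundant in fat and slow muscle, had the largest difference of all genes compared outside the score genes, 4.80 (SD 0.75 and 1.71, n = 4 each), with 253, 189.8, 149 and 75.1 RPKM against 20.3, 7.92, 4.16 and 0.972 RPKM. In the tumors between, Car3 was level at 66.2 to 76.9 RPKM while Adipoq fell from 22.6 to 6.94 RPKM, and off-dox 2 and off-dox 3 were the tumors with the most skeletal muscle transcripts. Cd36, the fatty acid translocase, lay at 23.1, 19.1, 17.9 and 9.60 RPKM against 3.43, 2.36, 1.01 and 1.17 RPKM, and Lpl, the lipase that frees fatty acids from lipoproteins and which stands in the list of secreted proteins, differed by 2.98. Slc2a4, the insulin-regulated glucose transporter GLUT4, was at 0.872 to 1.65 RPKM against 0.220 to 0.518 RPKM. Its highest value, 1.77 RPKM, was in off-dox 2 and off-dox 3, and muscle uses this transporter too. Adig (adipogenin, a small protein of fat) differed by 3.92 and was at 0 counts in off-dox 1 and no-dox 4. Mrap, the melanocortin receptor accessory protein, differed by 3.57, and Adrb3, the β3-adrenergic receptor of fat, by 1.80, at 0.931 to 2.20 RPKM against 0.0681 to 0.350 RPKM. Lower down, Ghr (growth hormone receptor, 0.67) and Cav1 (the caveolar coat protein, 0.73) were separated by less than 2-fold, and Ghr peaked outside the adipose-rich tumors, at 65.5 RPKM in plus-dox 2 and 80.7 RPKM in off-dox 4.

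On the lipid droplet, 4 of 14 genes were separated and the median difference was 0.32. Plin4, a coat of new and small droplets, was at 9.29, 6.72, 9.20 and 5.00 RPKM against 0.849, 0.682, 0.268 and 0.315 RPKM. G0s2, an inhibitor of the lipase ATGL, differed by 2.49, Lipe, the hormone-sensitive lipase, by 1.51 and Pnpla3, a lipid droplet hydrolase, by 1.4. Lipe had a floor of 3.65 to 3.82 RPKM in all 4 adipose-poor tumors, which are within 0.03 (SD) of one another on the log2 scale. Pnpla2, which encodes ATGL itself, had 25.2 to 30.5 RPKM in adipose-rich and 16.4 to 23.7 RPKM in adipose-poor tumors. Its groups did not overlap, but the difference of 0.37 was under 1.5-fold, so it was not counted. Plin2, the coat protein of droplets in most cell types, was the most abundant gene of the list, with 84.7 to 139 RPKM against 87.9 to 105 RPKM, a difference of 0.05. Hilpda, a droplet protein induced by hypoxia, was the other way, by -0.40, and overlapped.

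Among genes of fatty acid and triglyceride synthesis, 5 of 18 were separated and the median difference was 0.25. Pck1, the PEPCK that fat uses to make glycerol 3-phosphate, stood at 11.5, 15.5, 8.01 and 7.62 RPKM against 0.597, 0.0934, 0.0728 and 0.0516 RPKM, a difference of 4.67. Scd1 was at 132, 177, 219 and 102 RPKM against 9.51, 7.98, 6.97 and 5.96 RPKM, whereas its neighbor and homolog Scd2 had 60.4 to 77.5 RPKM against 64.0 to 91.5 RPKM. The 2 desaturases thus differed by 4.29 and -0.19. Thrsp, the lipogenic Spot14, spread over 1.37 to 15.8 RPKM in the adipose-rich tumors (SD 1.41 on the log2 scale) and over 0.0780 to 0.511 RPKM in the adipose-poor tumors. Fasn, fatty acid synthase, was separated by only 0.79, with 15.3 to 23.8 RPKM against 10.3 to 13.2 RPKM, and Acacb (acetyl-CoA carboxylase 2) by 0.70. Dgat2, which makes triglyceride, overlapped at 5.58 to 17.3 RPKM against 3.94 to 8.88 RPKM, and Me1, the malic enzyme that supplies NADPH, differed by -0.05.

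None of the 13 adipocyte transcription factors was separated, and their median difference was 0.12. Over all genes 1.35% were separated and higher, so 0 of 13 is near that share. Pparg had 9.70, 8.26, 7.47 and 7.26 RPKM in adipose-rich and 10.3, 10.8, 7.64 and 13.8 RPKM in adipose-poor tumors, and its highest value was in no-dox 4, the tumor with the least Adipoq. Cebpa lay at 14.5 to 17.1 RPKM against 10.4 to 13.4 RPKM, without overlap but by only 0.43, under 1.5-fold. Srebf1, the regulator of lipogenesis, differed by -0.24, Klf5 by -0.43 and Cebpd by 0.16, all with overlap. The Pparg counts are of the whole gene and do not tell its isoforms apart. Over all lists, the 55 adipocyte genes that were compared and not separated had a median level of 7.08 RPKM in the adipose-poor tumors, and the 33 separated genes had 0.83 RPKM there, while the levels in adipose-rich tumors were alike at 7.62 and 7.98 RPKM. As a group with a low level in 1 side is more readily separated, these medians are descriptive.

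**Figure D4:**
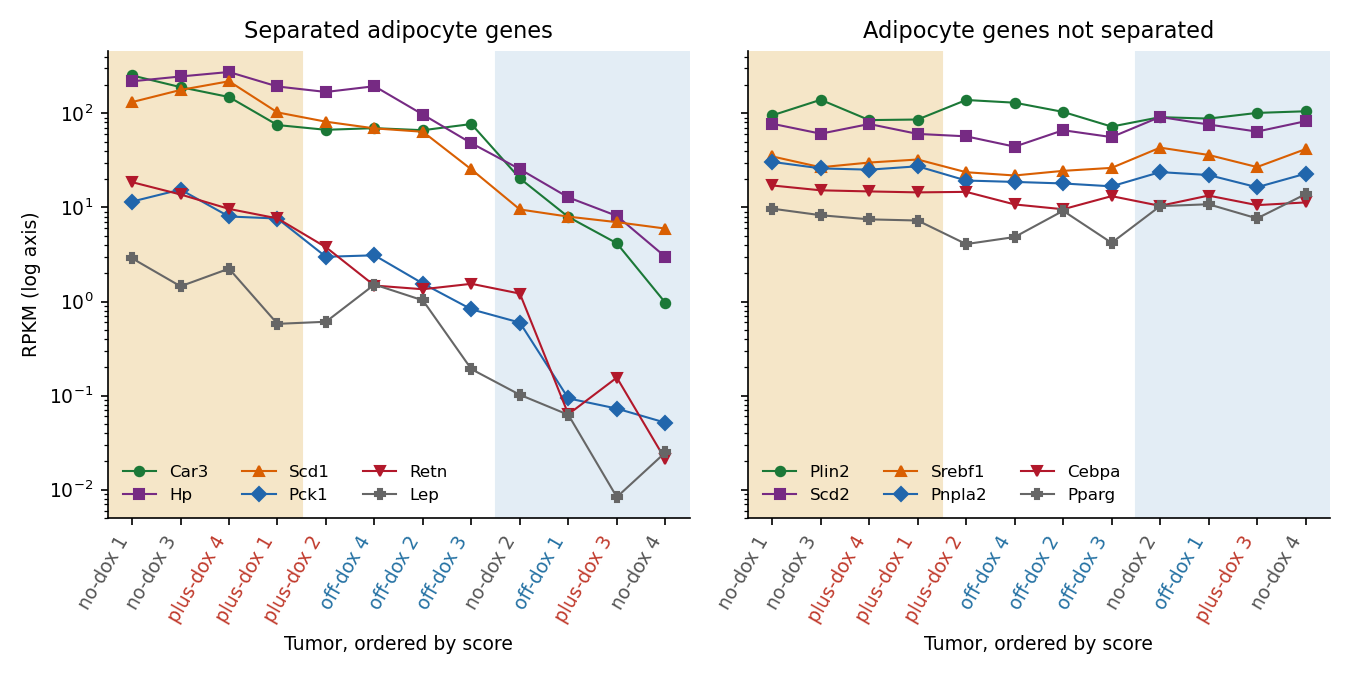
RPKM (log axis) of 12 adipocyte genes in the 12 tumors, ordered and shaded as in the plot of the score genes; the left panel holds 6 separated genes and the right panel 6 that were not (Pnpla2 and Cebpa because their difference was under 1.5-fold). Pck1 descends from 11.5 to 0.0516 RPKM, whereas Plin2 stays between 72.3 and 139 RPKM and Pparg between 4.08 and 13.8 RPKM.

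For thermogenic fat, 1 of 10 genes was separated. Ucp1, the uncoupling protein that defines brown and beige fat, had 0 to 5 counts per tumor, fewer than allow a comparison, and was under the RPKM limit. Cox8b, a subunit of cytochrome oxidase in brown fat and muscle, was at 2.79 to 4.79 RPKM against 0.0743 to 2.13 RPKM and peaked at 14.4 RPKM in off-dox 3, the tumor with the highest summed muscle transcripts. Cidea, a droplet protein of brown fat and of some epithelia, was as high in the adipose-poor tumors, at 12.9 to 24.9 RPKM, as in the adipose-rich tumors, at 9.48 to 17.0 RPKM, and low in plus-dox 2 and off-dox 4, at 0.918 and 1.81 RPKM. Adipocyte precursor genes, such as Ly6a, were not separated in any of 13 cases, with a median difference of 0.06. That count is near the share over all genes (1.35% higher and 0.46% lower).

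Besides listed genes, 152 of the 193 higher genes belonged to no list. Among the 12 with the largest differences, 1100001G20Rik, a small secreted protein, had 15.2, 17.5, 14.1 and 11.6 RPKM against 0.531, 0.651, 0.497 and 0.123 RPKM, a difference of 4.46. Cyp2e1, a cytochrome P450 of liver and fat, differed by 3.52. The tumors between were placed there by the same score, so adipocyte genes that lie between follow largely from the choice of tumors. Their mean lay between those of the 2 sides for 30 of the 33 separated adipocyte genes, for 90 of the 152 genes of no list (59.2%), for 15 of the 66 lower genes (22.7%) and for 19.8% of all genes compared. Genes with large differences have more room for this, and no test was made. In 9 of the 33 adipocyte genes, all 4 tumors between lay inside the gap that separates the 2 sides.

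Within each dox group, the 2 tumors with the higher score were also set against the other 2. Of the 14345 genes compared, 23 were higher in both upper tumors of no-dox, plus-dox and off-dox alike, with a mean difference above 1.5-fold. No gene was lower. All 8 tumors of the contrast except off-dox 1 are no-dox or plus-dox tumors, so only the off-dox pairs are largely outside it. These pairs were ranked by the same adipocyte score, so adipocyte genes that follow it describe the choice and are no separate support. Pck1 differed by 4.75 (no-dox), 2.98 (plus-dox) and 2.01 (off-dox), Hp by 4.67, 2.62 and 2.45, and Scd1 by 4.30, 2.63 and 2.20. Adig, Orm1, Plin4, G0s2, Sncg, Tusc5 and Lgals12 were the other adipocyte genes among the 23. Lep, with few counts, differed by 2.89, 1.61 and 2.02, and Wif1 by -2.23, -0.09 and -1.39, so that the lower gene with the largest difference had almost none in plus-dox tumors. Of the 12 lower genes with the largest differences, 9 were higher in the upper pair of plus-dox tumors, where Rab25 differed by 1.78, Cblc by 1.46, Tmc4 by 1.28 and Muc4 by 1.0. The epithelial genes Krt7, Esrp1, Elf3 and Ocln also turned there, at 1.09, 1.53, 1.82 and 1.86. In each of these genes, and in Wif1, plus-dox 2 was the lowest of its group. Plus-dox 3, the other tumor of the lower pair, lay above both upper tumors, which the rule that separated these genes requires. Muc4 was at 2.55 and 2.24 RPKM in plus-dox 4 and plus-dox 1, 0.0532 RPKM in plus-dox 2 and 5.51 RPKM in plus-dox 3. The turned signs thus come from plus-dox 2, the only tumor of the group whose level that rule left free. In off-dox tumors 2 of the 12 were above 0, 4930562F07Rik at 0.58 and Gm11545 at 0.08. In no-dox tumors 0 of the 12 were, which the choice of genes fixed, since both no-dox pairs lie inside the contrast.

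Mast cell genes lay higher in the adipose-rich tumors as well. Of the 8 listed, 5 were separated (Cpa3, Mcpt4, Cma1, Tpsb2 and Fcer1a), beside 1.35% of all genes separated and higher. All 8 had a difference above 0, and their median was 1.19 against 0.04 over all genes. Cma1, a chymase, was at 21.8, 24.9, 35.4 and 16.5 RPKM against 6.98, 12.1, 6.82 and 11.1 RPKM. Cpa3, the mast cell carboxypeptidase, had 11.8, 14.5, 21.6 and 11.4 RPKM against 3.79, 6.11, 4.15 and 7.0 RPKM. The peak of both was plus-dox 4 and not the tumor with the most Adipoq. Fcer1a, part of the IgE receptor, differed by 1.55, and Tpsb2, a tryptase with a close copy, by 1.25. The summed RPKM of the list was 68.9 to 137 in adipose-rich and 27.4 to 53.8 in adipose-poor tumors, and in the tumors between it was 26.0 to 54.9, the level of the adipose-poor tumors, although their adipocyte score was higher. Within the off-dox group the upper pair lay below the lower pair, by -0.69 for Cpa3, -0.89 for Mcpt4, -1.05 for Cma1, -1.40 for Tpsb2 and -0.91 for Fcer1a. The same differences were above 0 in no-dox (1.15 to 1.64) and plus-dox tumors (1.07 to 1.56). For separated genes the no-dox sign follows from the choice, as all no-dox tumors are in the contrast. All plus-dox tumors except plus-dox 2 are in it too, so these signs are no separate support.

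Skeletal muscle genes had a median difference of 1.13 against 0.04 over all genes, with 18 of 18 above 0. The 2 separated genes were Acta1 (skeletal actin) and Eno3 (muscle enolase), beside 1.35% of all genes separated and higher. The sums nonetheless overlapped, at 205.5 to 280.3 RPKM in adipose-rich and 32.0 to 230.7 RPKM in adipose-poor tumors, and the highest, 773 to 1783 RPKM, were in plus-dox 2, off-dox 2 and off-dox 3. Acta1 was at 78.8, 46.9, 55.4 and 45.3 RPKM against 22.3, 42.9, 33.6 and 2.99 RPKM. Car3, Cox8b and Slc2a4, which muscle also expresses, were separated together with these genes (Slc2a4 was at 0.76 without no-dox 4), and the part of muscle in their differences was not tested. Other markers of skin glands gave little, with separated genes near the share over all genes (1.35% higher and 0.46% lower). The casein and whey protein genes of mammary epithelium were at or near 0 except Csn3, which reached 3.63 RPKM in plus-dox 2 and 2.22 RPKM in off-dox 4, with a summed RPKM of 0.295 to 4.37 for the list, and the sebaceous list (0 of 4) and the epidermis list (0 of 11) held no separated gene.

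The 66 lower genes were led by Wif1 and by several genes of epithelial surfaces. Wif1, a secreted inhibitor of Wnt proteins, had 3.38, 1.39, 2.23 and 2.49 RPKM in adipose-rich and 9.34, 18.6, 7.46 and 13.5 RPKM in adipose-poor tumors, a difference of -2.22 (SD 0.47 and 0.57, n = 4 each), and in the tumors between it was lower still, at 0.748 to 2.37 RPKM. Duox2, an NADPH oxidase of mucosal surfaces, was at 0.524 to 1.06 RPKM against 2.06 to 4.73 RPKM. Its maturation factor Duoxa2, which lies next to it, had 0.553 to 1.43 RPKM against 1.61 to 6.15 RPKM. The pair differed by -1.86 and -1.82. Hsd17b2, which inactivates estradiol, differed by -1.77, Muc4, a membrane mucin, by -1.42, St14, the protease matriptase, by -1.41, and Rab25, an epithelial GTPase, by -1.29. Tmc4, 4930562F07Rik, Gm11545, Padi1 and Cblc followed with -1.26 to -1.17. Several of these values moved when 1 tumor was left out and the rule was applied to the other 11. Off-dox 3 (Wif1 at 0.815 RPKM) then replaced an adipose-poor tumor. Plus-dox 2 (Muc4 at 0.0532 RPKM) replaced an adipose-rich tumor. The shifts therefore hold the tumor that entered as well as the one left out, and the 2 were not told apart. Wif1 differed by -1.18 without off-dox 1, -1.30 without no-dox 4 and -1.43 without no-dox 2. Hsd17b2 was at -1.11 without off-dox 1, St14 at -0.93 without no-dox 2, and Muc4 at -2.22 without plus-dox 4 and -2.18 without plus-dox 1. Without no-dox 2 and without off-dox 1, Rab25 was at -0.53 and -0.68, Tmc4 at -0.68 and -0.77, Padi1 at -0.70 and -0.76, and Cblc at -0.63 and -0.75. Rab25, Tmc4 and Cblc reached -2.33, -2.0 and -2.13 with a tumor of the adipose-rich side left out.

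All 12 genes of the tumor epithelium list had a difference below 0, with a median of -0.65 against 0.04 over all genes. Of these, 4 were separated, beside 0.46% of all genes separated and lower. Krt7, a keratin of ducts, was at 141, 167, 98.6 and 129 RPKM against 303, 209.6, 206 and 189.7 RPKM. Elf3, an epithelial transcription factor, lay at 31.3 to 42.2 RPKM against 46.8 to 83.7 RPKM, Esrp1, an epithelial splicing regulator, at 5.58 to 8.70 RPKM against 8.85 to 20.6 RPKM, and Ocln, the tight junction protein occludin, at 16.6 to 21.8 RPKM against 22.3 to 41.6 RPKM. These genes did not follow the score through the tumors between, since plus-dox 2 and off-dox 4, of middle score, had the lowest levels of all, with Elf3 at 2.67 and 12.2 RPKM and Ocln at 0.861 and 4.76 RPKM. The summed list overlapped, at 1664 to 2527 RPKM against 2091 to 3181 RPKM, with Krt8, Krt18 and Krt19 as its most abundant members. Epithelial and adipocyte transcripts are shares of the same libraries, and the part of this in the differences was not tested.

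**Figure D5:**
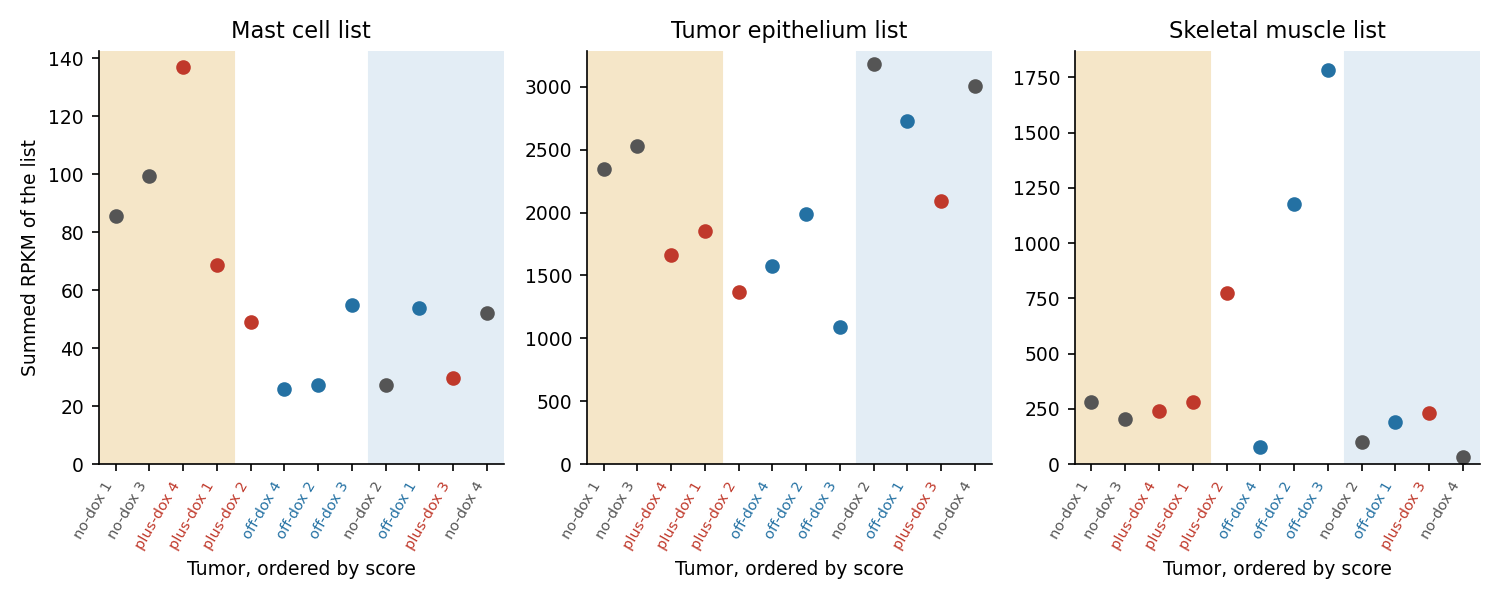
Summed RPKM of the mast cell, tumor epithelium and skeletal muscle lists, 1 point per tumor (gray no-dox, red plus-dox, blue off-dox), with tumors ordered and shaded as in the plot of the score genes. The mast cell sum is 68.9 to 137 in the adipose-rich tumors and at most 54.9 in the other 8, the epithelial sums overlap, and the muscle sum is highest outside both sides, at 1783 in off-dox 3.

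Several programs often discussed with fat held few separated genes. Over all genes, 1.35% were separated and higher and 0.46% separated and lower, and the median difference was 0.04. A list of this size can hold 0 or 1 separated gene by that share alone, so these counts say little about the programs. Macrophage genes had a median difference of 0.12, and only Gpnmb, a glycoprotein of lipid-laden macrophages, was separated, lower in adipose-rich tumors by -0.78. Of 9 genes of adipose inflammation, none was separated. The lists of fibroblast (0 of 13), endothelial (1 of 17, Tek), pericyte and smooth muscle (0 of 12), neutrophil (0 of 5), T and NK cell (0 of 7), peripheral nerve (0 of 9) and sex-linked genes (0 of 5) gave 1 separated gene in all. Fatty acid oxidation (0 of 15, median 0.00) and branched chain amino acid degradation (0 of 26, median 0.19, 25 of 26 above 0) had none. Hypoxia genes lay below 0 in 11 of 11 cases with a median of -0.42, and Car9, a carbonic anhydrase that hypoxia induces, was separated at 79.6 to 108 RPKM against 117 to 172 RPKM. Cell cycle genes were above 0 in 15 of 15 cases, with a median of 0.42, and none was separated. The summed RPKM of both lists overlapped. It was 1343 to 2162 in adipose-rich against 1534 to 2235 in adipose-poor tumors for hypoxia, and 204 to 252 against 136 to 271 for the cell cycle. The genes that the study lists as changed by dox in these tumors were not separated either, with medians of -0.03 (27 genes higher with dox) and 0.05 (10 genes lower with dox).

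Whether dox went with adipocyte transcripts was tested across the labelled groups, which the choice of tumors did not use. The score had a mean of 3.90 ± 3.01 in no-dox tumors, of 4.18 ± 2.43 in plus-dox tumors and of 3.51 ± 1.41 in off-dox tumors (SD, n = 4 each), and the ranges overlapped, at 0.25 to 6.55, 0.58 to 5.91 and 1.57 to 4.82. With edgeR's quasi-likelihood test on 17561 genes and the limits of an adjusted p under 0.1 and over 1.5-fold, 0 of 99 adipocyte genes were called between plus-dox and no-dox tumors, where 0% of all genes were called, and 6 of the 99 had an unadjusted p under 0.05, as had 2400 genes in all (13.7%). Off-dox against plus-dox also gave 0 of 99, with 0% of all genes called and 2 of the 99 under 0.05, beside 537 of all genes (3.06%). For off-dox against no-dox tumors edgeR called 0 of 99 beside 1.34% of all genes, and 17 of the 99 had an unadjusted p under 0.05, as had 3586 of all genes (20.4%). Of the 99, 24 had a log2 fold change above 0, and the median of the 99 was -0.40 against 0.01 over all genes. Off-dox against plus-dox likewise had 24 of the 99 above 0 (median -0.23), and plus-dox against no-dox had 38 (median -0.12). The 235 calls behind that 1.34% were not stable, since leaving out 1 tumor gave 0 to 789 calls and 0 in 7 of 12 cases (without no-dox 1, no-dox 2, no-dox 4, plus-dox 4, off-dox 2, off-dox 3 or off-dox 4). It gave 1 without no-dox 3, 19 without plus-dox 3, 208 without plus-dox 1, 352 without plus-dox 2 and 789 without off-dox 1, while the 8 tumors of the pair alone gave 3 and an adjusted p under 0.05 gave 0. DESeq2 called 0, 8 and 0 of the 99 in plus-dox against no-dox, off-dox against no-dox and off-dox against plus-dox, beside 0.729%, 3.5% and 0.0342% of all genes. Those 8 were Adrb3, Agt, Cebpd, Dgat2, Fabp3, Klf15, O3far1 and Rbp4, and the 2 tools thus differed on this comparison.

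The score genes themselves had large standard errors, and 0 of the 5 were called. Adipoq differed by -0.26 (SE 1.33, adjusted p = 0.939, edgeR) between plus-dox and no-dox tumors and by -1.20 (SE 1.36, adjusted p = 0.638, edgeR) between off-dox and no-dox tumors, and Cfd by -2.0 (SE 1.49, adjusted p = 0.464, edgeR) in the latter. With errors of this size, several-fold differences between dox groups could not be detected in these genes. Cebpd, a transcription factor of early adipogenesis, came nearest to the limit, at 31.5 ± 7.73 RPKM in no-dox and 16.7 ± 6.17 RPKM in off-dox tumors (SD, n = 4 each), or -0.89 on the log2 scale (SE 0.27, adjusted p = 0.117, edgeR). Without off-dox 1 it was called along with Dgat2, Fabp3 and Klf5, 4 of 99 in all beside 4.51% of all genes, and without plus-dox 2 along with O3far1, 2 of 99 beside 2.02%.

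Depth did not separate the sides. The tumors had 19845923 to 33137609 counted reads, with 20784597 to 29971902 in the adipose-rich and 21061889 to 33137609 in the adipose-poor tumors. The share of mapped reads that fell on genes was 83.8% to 89.2% and 82.2% to 89.4%, and the labels name no sequencing batch. The tumors that stood apart from the rest by low epithelial or high muscle transcripts (plus-dox 2, off-dox 4, off-dox 2 and off-dox 3) were all among the 4 between, so the contrast was made without them.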

How the data were processed

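RNA was sequenced from 12 KCip53-1 tumors, 4 per dox group by the sample labels. The authors prepared polyA+ libraries without strand information, mapped 50-bp reads to mm9 with TopHat (the submitters' processing notes name TopHat 1.4.1 and Bowtie 0.12.8), and summed coverage over the exon bases that belong to 1 RefSeq gene alone. The deposited expected counts are not normalized, and 58.2% of them are not whole (within 0.01). The deposited RPKM values are scaled to exon length and to mapped reads. The handling of duplicate and multiply mapped reads is not given in the sources used here, which leaves genes with close copies uncertain.

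Genes were described on log2(RPKM + 0.25), with mean RPKM above 0.25 over the 12 tumors and exonic length above 250 bp, the limits of the study. A gene was called separated where the 4 adipose-rich and 4 adipose-poor tumors did not overlap and their means differed by over 1.5-fold. Dox groups were tested on rounded counts with edgeR 4.0.16 (R 4.3.3, TMM, quasi-likelihood test in 1 fit of 3 groups, at least 10 counts over the 12 tumors, Benjamini-Hochberg over all genes), with DESeq2 1.42.0 as an alternative. The p-values take tumors as independent and are too small where tumors of a group shared a mouse. Python 3.11.15 with pandas 2.3.3 served for the rest, and scripts were tested on simulated data.

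The tumors, gene lists and tests were chosen with earlier results of these data known. Named genes are the score genes, the 3 most abundant members of each list, 14 defining adipocyte genes, the 12 largest differences in each direction and separated members of the lists; the genes of the dox comparisons that DESeq2 called were named after their values were seen. The gene lists were written from general knowledge, except 2 lists the study gives. No 2 libraries of a group were copies (chi-square per degree of freedom of 20.9 or more in 18 pairs). Some items of the genotype and gene lists are not reported here.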

Additional observations from a re-analysis of the deposited data

Results flagged for a closer look

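In each labelled dox group of 4 tumors, the score and 40 named genes were searched for a tumor that lay far from the other 3 by Dixon's ratio of the gap to the range, on the log2 scale. Of 123 sets of values, 14 held such a tumor, and chance flags about 1 in 20 sets. That rate does not apply to genes chosen on these same values, and the genes share tumors, so the flags are not independent.

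Plus-dox 3 was low for Adipoq (0.353 RPKM, others 20.3 to 39.5), Cfd (1.68 RPKM, others 159.5 to 321), Cidec (0.703 RPKM, others 13.4 to 21.8), Hp (8.13 RPKM, others 169 to 275), Cyp2e1 (0.235 RPKM, others 3.11 to 4.52) and Cebpa (10.6 RPKM, others 14.5 to 14.8). Off-dox 1 was low for Car3 (7.92 RPKM, others 66.2 to 76.9) and Retn (0.0633 RPKM, others 1.35 to 1.54). Plus-dox 2, a tumor of middle score, was low for Rab25 (0.0288 RPKM, others 3.11 to 4.81), Tmc4 (1.39 RPKM, others 11.4 to 15.1) and Pparg (4.08 RPKM, others 7.26 to 7.64). Off-dox 2 was high for 4930562F07Rik (2.88 RPKM, others 1.16 to 1.17). Ucp1 was above 0 in a single tumor of 2 groups, plus-dox 3 (0.0827 RPKM, 5 counts) and off-dox 3 (0.0710 RPKM, 3 counts), with the others at 0.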

How the results depend on the processing

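The count of 193 higher genes was 119 with a pseudocount of 1, 409 with 3 against 3 tumors, 58 with 6 against 6, 92 at over 2-fold and 23 when the 2 highest were set against the 2 lowest of each dox group. The count of 66 lower genes was 109 on log2 CPM with TMM factors, 156 with 3 against 3 tumors, 7 with 6 against 6, 17 at over 2-fold and 0 within the dox groups. A limit of 2-fold can only lower a count, and the cause of the other changes was not tested. Leaving out 1 tumor and applying the rule to the other 11 gave 114 to 291 higher and 10 to 171 lower genes. A pseudocount of 0.05, a mean RPKM over 1 and no RPKM filter kept both counts within 1.5 times. All 193 and 66 genes were kept by scaled markers and by a score over the other adipocyte genes except those of thermogenic fat. As 32 of the genes in that score are among the 193, it is no independent check. Among 40 named genes, no separated gene changed direction under any setting, where the value within dox groups is a mean over the 3 groups that hides the reversals in plus-dox tumors given above.

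The 0 adipocyte genes called between off-dox and no-dox tumors became 8 with DESeq2 and 1 with at least 10 counts in every tumor, and 0 to 4 with 1 tumor left out. The other settings, RLE factors, no count filter, the 8 tumors of the pair alone and an adjusted p under 0.05, gave 0, and in the other 2 dox comparisons every setting gave 0, leaving out 1 tumor included. With the replicate number as a block, 0 adipocyte genes were called in each comparison and the calls over all genes between off-dox and no-dox tumors went from 235 to 0. The numbers do not pair the tumors, however, since 2 of 12 same-number pairs deviated together with a correlation over 0.1 (range -0.45 to 0.57), and 2 of 12 tumors correlated best with their own number. Depth limits the lowest levels, with 5 counts of Adipoq and 1 of Plin1 in no-dox 4.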
